A study of Mus musculus with 8 samples.

Results

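Glycolysis and the response to low oxygen were followed through 36 genes in sorted prostate epithelium of mice. The genes were chosen by symbol and matched to the Ensembl identifiers of the deposited tables, 36 of 55335 in all. Of these, 22 take part in glucose uptake, glycolysis, or the fate of lactate and pyruvate, and 14 belong to the hypoxia pathway without being glycolytic enzymes. A second identifier annotated as Aldoa was left out. Glycolysis turns glucose into pyruvate in the cytosol, and lactate dehydrogenase turns pyruvate into lactate, which leaves the cell through monocarboxylate transporters. Under low oxygen the transcription factors HIF-1α and HIF-2α, encoded by Hif1a and Epas1, escape the prolyl hydroxylases of the Egln family, which otherwise mark them for degradation. They pair with ARNT, bind DNA at the core letters ACGTG or GCGTG, and raise genes of glucose use, blood vessel growth and cell survival. HIF-1α is controlled largely at the protein level, which RNA does not show. Prostate epithelium is known for making and secreting citrate.

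RNA was sequenced in 8 libraries that form 4 groups of 2. Per the labels, the mice were of 2 genotypes that share their background, PP and PPK, and PPK mice also carried Kmt2cPC-/-. Kmt2c encodes a histone H3K4 methyltransferase, and the groups ask how its loss changes the epithelium with and without ADT. The labels name neither the promoter that drove the deletion nor the exons deleted, and no wild-type epithelium was analysed here. Sham mice were 3.5 months old and mice given ADT, the usual abbreviation of androgen deprivation therapy, were 6.5 months old, so treatment and age cannot be told apart and the difference is called ADT with age. The design text gives the sort as EpCAM+, CD24A+ and CD49F-low, and the way ADT was done is not stated. The letters A and B mark the 2 libraries of a group. Nothing says that they came from separate animals, so p-values reflect only how far these libraries spread, and that may be technical.

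The upstream sequences of 6 members show the HIF core letters, and they were picked to cover glucose uptake, lower glycolysis, lactate formation, lactate export and a pair of targets outside glycolysis. They are RefSeq bases of build GRCm38.p6, written 5′ to 3′ on the strand of the gene, and end before the RefSeq start of transcription. Capitals mark ACGTG and GCGTG on either strand, where CACGT and CACGC are the same letters read from the other strand. The stretches of Slc2a1 (chr4:119108495-119108730), Pgk1 (chrX:106186850-106187099), Ldha (chr7:46845554-46845803) and Slc16a3 (chr11:120948817-120949066) lie on the plus strand. Those of Ankrd37 (chr8:45999851-46000100) and Ddit4 (chr10:59951815-59952020) lie on the minus strand. By GENCODE M21, between 14 and 20 of the bases lie in an annotated exon for Slc2a1, Slc16a3, Ankrd37 and Ddit4, and none do for Pgk1 and Ldha. The Ldha and Slc16a3 stretches lie wholly within the annotated bounds of their genes, which begin further upstream.
Slc2a1: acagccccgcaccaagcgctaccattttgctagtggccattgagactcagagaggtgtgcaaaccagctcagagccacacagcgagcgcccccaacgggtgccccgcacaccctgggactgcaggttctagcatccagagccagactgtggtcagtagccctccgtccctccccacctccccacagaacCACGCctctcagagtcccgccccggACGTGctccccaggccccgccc
Pgk1: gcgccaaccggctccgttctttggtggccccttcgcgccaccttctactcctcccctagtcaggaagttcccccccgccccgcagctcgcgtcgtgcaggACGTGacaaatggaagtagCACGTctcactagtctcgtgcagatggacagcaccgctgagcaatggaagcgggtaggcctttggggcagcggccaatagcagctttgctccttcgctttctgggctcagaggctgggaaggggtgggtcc
Ldha: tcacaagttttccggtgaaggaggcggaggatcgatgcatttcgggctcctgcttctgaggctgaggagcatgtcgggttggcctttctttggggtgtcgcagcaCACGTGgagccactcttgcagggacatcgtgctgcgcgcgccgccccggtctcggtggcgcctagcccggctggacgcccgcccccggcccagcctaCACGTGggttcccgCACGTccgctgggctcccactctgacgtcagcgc
Slc16a3: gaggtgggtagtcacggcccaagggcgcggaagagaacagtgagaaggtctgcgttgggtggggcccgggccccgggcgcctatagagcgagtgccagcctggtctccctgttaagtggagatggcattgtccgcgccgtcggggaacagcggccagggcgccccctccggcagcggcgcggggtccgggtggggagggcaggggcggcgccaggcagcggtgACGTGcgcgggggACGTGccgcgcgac
Ankrd37: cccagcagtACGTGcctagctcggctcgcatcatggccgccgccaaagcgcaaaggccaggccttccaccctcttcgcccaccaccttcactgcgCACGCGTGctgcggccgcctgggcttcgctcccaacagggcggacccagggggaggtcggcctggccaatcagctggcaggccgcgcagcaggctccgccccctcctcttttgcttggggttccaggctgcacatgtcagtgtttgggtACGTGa
Ddit4: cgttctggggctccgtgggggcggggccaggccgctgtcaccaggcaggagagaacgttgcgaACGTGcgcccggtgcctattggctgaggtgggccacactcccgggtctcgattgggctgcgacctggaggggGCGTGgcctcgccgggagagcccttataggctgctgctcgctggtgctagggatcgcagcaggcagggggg

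ACGTG occurred 5 times in the Ldha stretch, counting each palindrome CACGTG on both strands. It occurred 2 times each for Pgk1, Slc16a3 and Ankrd37 and 1 time each for Slc2a1 and Ddit4. The 2 matches of GCGTG in Ankrd37 overlap each other on opposite strands. The RefSeq table holds 48 promoters of 33 members, each running a short way past the start, and it has no entry for Epas1, Ero1l and Ndrg1. ACGTG was present in 26 of the 48 (54.2%), against 19.6% of all 32851 promoters in the table and 25.4% of the 11900 promoters of tested genes. GCGTG was present in 58.3%, against 32.4% of all promoters and 50.1% of those of tested genes. Median GC content was 62.8% in the members' promoters, 52.7% in all and 60.7% in those of tested genes. Many members were listed because they are known HIF targets, so the higher share is a property of the list, and a match is not a bound site.

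Values are FPKM, a fragment count scaled by gene length and library size, as the authors deposited them. Summed FPKM ran from 284015 to 333977 over the 8 libraries. Depth in reads is not in the tables, and the commonest ratio between low values placed the libraries at 0.702 to 1 of the depth of PP sham A. Kmt2c, the targeted gene, stood at 13.3 and 13.9 FPKM in PP sham, 8.67 and 8.15 in PPK sham, 10.3 and 9.33 in PP ADT and 6.60 and 6.36 in PPK ADT. It was lower in PPK mice by -0.63 ± 0.066 (log2 fold change of FPKM + 1 ± SE) in sham and by -0.53 ± 0.066 in ADT mice (adjusted p = 0.000794 and 0.00054, limma). Luminal, basal and squamous markers stood furthest apart in PPK ADT. The summed FPKM of 10 luminal markers was 1882 to 1908 there and 4981 to 5936 in the other 6 libraries. The sum of 9 basal markers was 6237 to 6300 against 931 to 1427, and that of 12 squamous markers 3297 to 3365 against 496 to 780. The luminal sum holds Epcam and Cd24a and the basal sum Itga6, the genes of the proteins used for the sort. Krt8 and Krt18, luminal keratins, were nevertheless present everywhere (286 FPKM or more), and Trp63, the basal regulator, was at 23.2 and 23.4 FPKM in PPK ADT against 0.29 to 0.98. In bulk RNA, a change in the number of cells of a type and a change in RNA per cell cannot be told apart. All 11 lymphocyte markers were under 1 FPKM in every library, with Ncr1 at 0, and so were Csf1r and Adgre1, known from macrophages, Ptprc, found on leukocytes in general, and 8 of 10 endothelial markers. The 9 fibroblast markers summed to 46.8 and 49.3 FPKM in PPK ADT and 5.26 to 21.2 elsewhere, and the 5 erythrocyte markers to 20.7 and 25.1 against 7.54 to 13.3. The 12 macrophage markers summed to 43.5 and 44.0 in PPK ADT against 64.8 to 143, and the 10 neutrophil markers to 780 and 821 against 99.0 to 451, with 5 of those 10 under 1 FPKM everywhere. The 7 smooth muscle markers summed to 12.1 and 11.95 in PPK ADT against 1.88 to 6.08 elsewhere, with 5 of the 7 under 1 FPKM everywhere. The sum of 10 immediate early genes, which respond to handling, ran from 5024 to 5068 in PP sham down to 1949 to 1985 in PPK ADT. The part of these shifts in the differences below was not tested.

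The members were highest in PPK ADT as a rule. Both PPK ADT libraries stood above the other 6 in 27 of 36 members, where 29.6% of the 14000 genes tested did so, and below them in 1 member, Epas1, against 25.8% of genes. Vldlr is among the 27, and it reached 1 FPKM, the filter for testing, only in PPK ADT, so its place was built in. Summed over the 22 glycolytic members, FPKM was 1282 and 1283 in PP sham, 1523 and 1557 in PPK sham, 1387 and 1389 in PP ADT, and 2225 and 2186 in PPK ADT. Summed over the 14 other members it was 332 and 329, 406 and 399, 375 and 370, and 773 and 774 in the same order. Within each group the pair of libraries lay close together, and the sham and PP ADT sums differed far less from each other than from PPK ADT. Both PP sham libraries stood below the rest in 11 members (10.9% of genes) and above it in 0 (16.0%). Both PP ADT libraries were lowest in 12 members (14.0%) and highest in 2, Aldoc and Epas1 (11.0%). Both PPK sham libraries were highest in 2, Aldoa and P4ha1 (9.61%), and lowest in 1, Hif1a (7.81%).

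**Figure D1:**
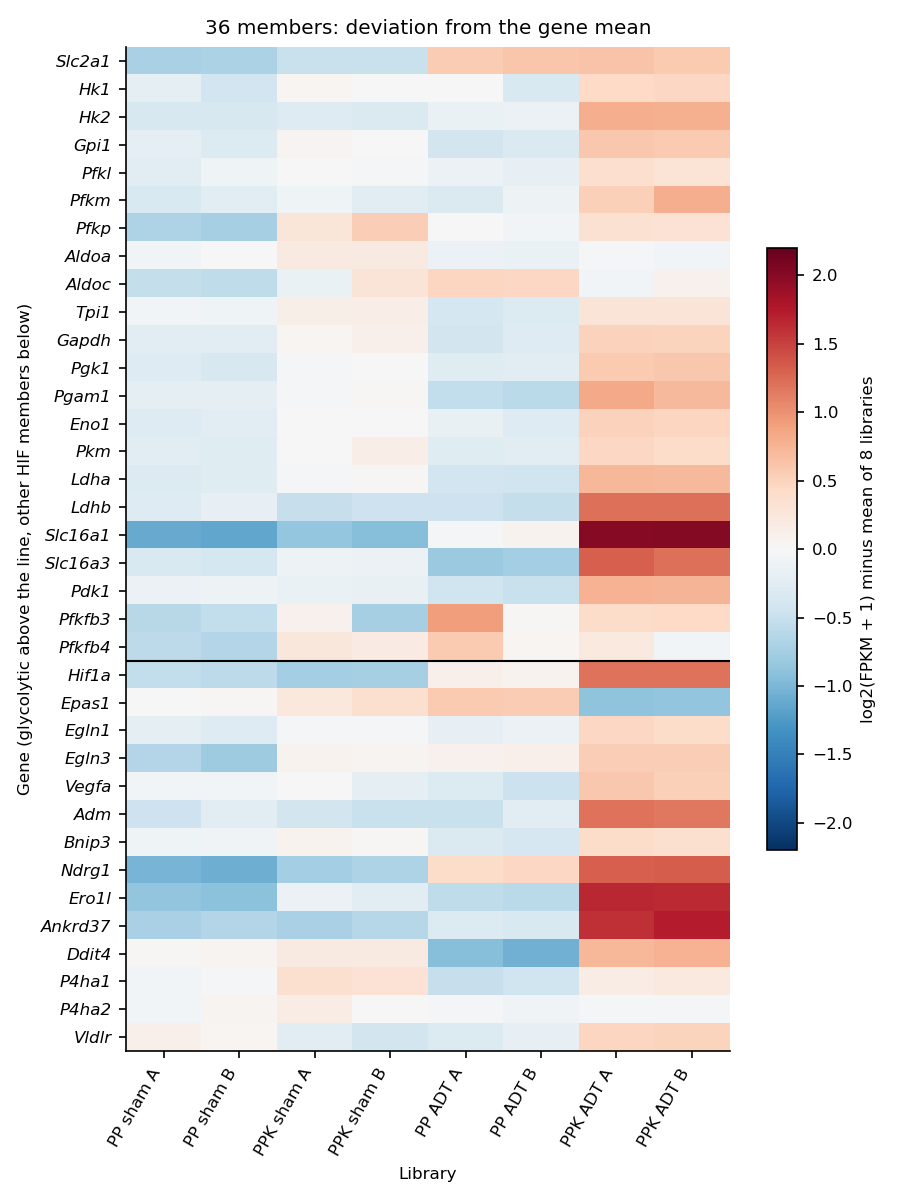
Deviation of each of the 36 members (rows) in each of the 8 libraries (columns) from that gene's mean over all libraries, in log2(FPKM + 1). The 2 right-hand columns, PPK ADT, are red in 28 rows where that group has the highest mean, and Epas1 is blue there. Vldlr is among the 28 and reached 1 FPKM only in PPK ADT.

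A gene passed a comparison with a Benjamini-Hochberg adjusted p under 0.05 over the 14000 genes tested, from limma, two-sided, and all 36 members were tested. Vldlr reached the filter of 1 FPKM only in PPK ADT and Slc16a1 only in the ADT groups, so their differences from the groups below it are partly built in. Without Vldlr, each count of higher or lower members below that holds it is 1 less, of 35. Likewise, without Slc16a1 each count of members higher with ADT than in sham mice is 1 less, of 35. In sham mice, PPK epithelium had higher RNA of most glycolytic genes by a small amount. There 22 members were higher in PPK than in PP (13.7% of genes were), 3 were lower (14.9%) and 11 did not pass, while 28.6% of genes passed in either direction. The median log2 difference was 0.25 for the glycolytic and 0.15 for the other members, against -0.02 for all genes. A 2-fold difference was reached by 1 member upward, Pfkp (1.96% of genes), and 0 downward (1.72%). The count of higher members was 15 without PP sham A, PP sham B or PPK sham B and 16 without PPK sham A, and the count of lower members was 1 or 2 without any one of these 4 or either PPK ADT library. Genes listed as markers of other cells differed by genotype in sham mice too. Of 12 macrophage markers 9 were tested, and 8 were higher in PPK and 1 lower. Of 10 neutrophil markers only 3 were tested, all higher, and of 9 fibroblast markers 7 were tested and 6 higher. Ptprc, Csf1r and Adgre1 of the macrophage list and 5 of the neutrophil list were under 1 FPKM in every library. Of 10 immediate early genes, 9 were lower in PPK. The macrophage sum was 65.1 and 64.8 FPKM in PP sham and 129 and 133 in PPK sham, and the fibroblast sum 6.70 and 7.15 against 21.2 and 20.7. Their part was not tested.

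In ADT mice the genotype difference was wider. PPK was higher than PP in 30 members (32.5% of genes), lower in 2, Aldoc and Epas1 (27.1%), and 4 did not pass, with 59.6% of genes passing in either direction. The median was 0.77 for glycolytic and 0.81 for other members, against 0.05 for all genes, and the glycolytic median was 0.50 under quantile normalization. At least 2-fold higher were 11 members (9.91% of genes) and 1, Epas1, was at least 2-fold lower (7.93%). The lower count was 1 without PP ADT A or either PPK ADT library, which left Aldoc above the threshold. Basal and squamous marker sums were higher and luminal sums lower in the same libraries. Of the members, 18 were higher in PPK in both sham and ADT mice (4.56% of genes), and 9 were higher in ADT mice without passing in sham mice (23% of genes), namely Adm, Ankrd37, Hk1, Hk2, Pdk1, Pfkl, Pfkm, Slc16a1 and Vegfa. Slc16a1 did pass in sham mice with a pseudocount of 0.1 (0.49, adjusted p = 0.0249) and without the trend (adjusted p = 0.0337). Hif1a, Ldhb and Vldlr were lower in PPK sham and higher in PPK ADT (4.93% of genes), and Aldoc and Epas1 the reverse (6.25%). The difference of the genotype effects, ADT minus sham, was tested itself. It was above 0 in 26 members (30.0% of genes) and below 0 in 7 (22.8%), and it did not pass for Hk1, Pfkfb3 and P4ha2, while 52.8% of all genes passed. A difference of at least 1 on the log2 scale was seen upward in 11 members (11.3% of genes) and downward in 3 (9.76%).

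**Figure D2:**
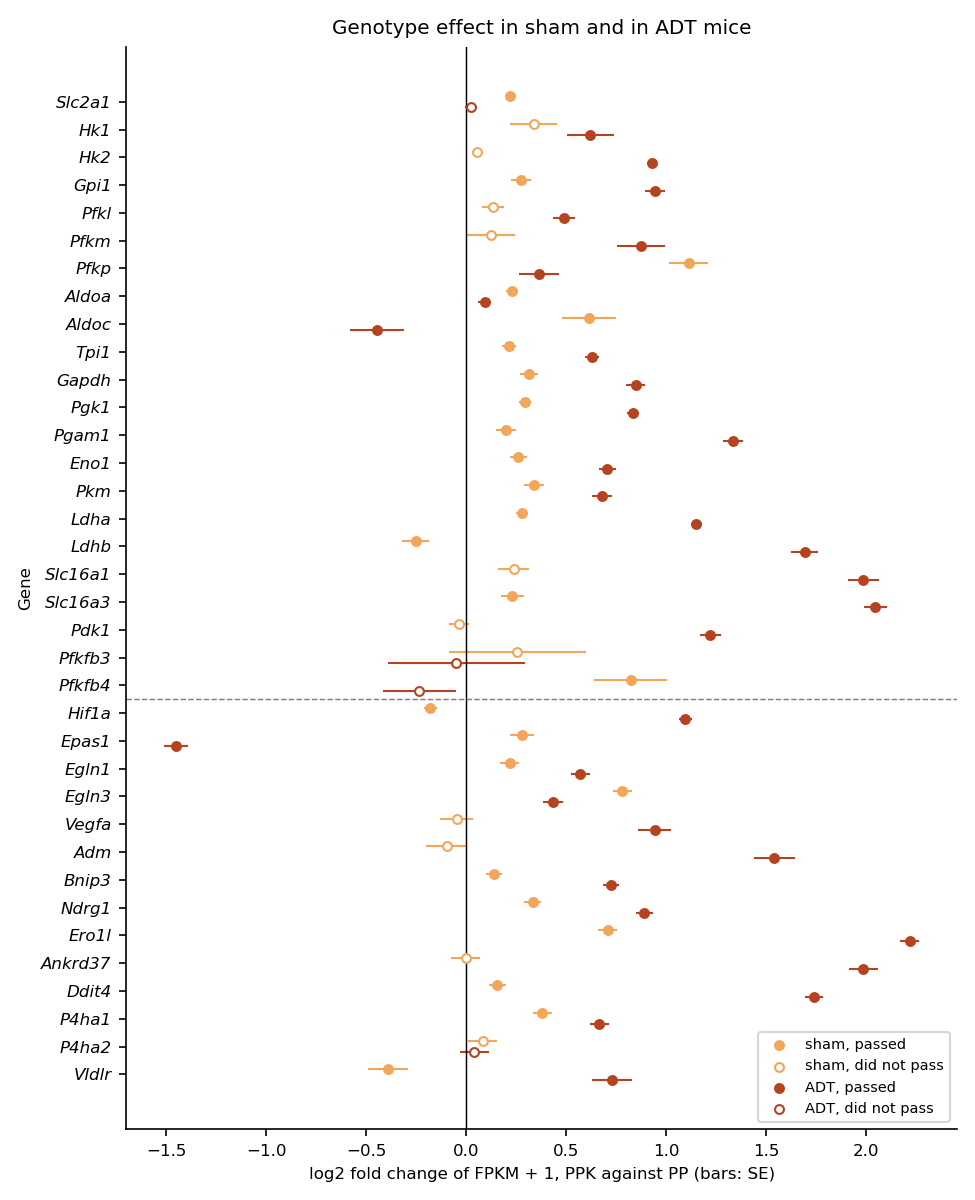
Log2 fold change of FPKM + 1, PPK against PP, for each member in sham (orange) and ADT mice (red), with SE bars; filled points passed the threshold. In ADT mice 30 members lie above 0 and passed, against 22 in sham mice.

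ADT with age went with different changes in the 2 genotypes. In PP, 13 members were higher in ADT than in sham mice (19.1% of genes), 12 were lower (25.1%) and 11 did not pass, while 44.2% of genes passed. Median-of-ratios scaling gave 15 higher and 8 lower members there, with Pgk1 and Egln1 added and Aldoa, Ldha, Ldhb and Vldlr lost, and over all genes 3145 higher and 2907 lower in place of 2667 and 3518. By at least 2-fold, 5 were higher (4.29%) and 1 was lower (4.39%). In PPK, 28 were higher (31.9%), 3 were lower (30.7%) and 5 did not pass, while 62.6% of genes passed. By at least 2-fold, 10 were higher (10.1%) and 1 was lower (9.66%). Quantile normalization gave 25 higher and 3 lower members in PPK, with Gapdh, Pkm and Tpi1 lost. Median-of-ratios scaling gave 28 higher and 2 lower. The glycolytic median in PP was 0.02 against -0.07 for all genes, and it was -0.02 without PP ADT A, 0.10 with median-of-ratios scaling and 0.099 with quantile normalization. In PPK it was 0.58 against 8.6e-05. Higher in both genotypes were 8 members (8.76% of genes), namely Slc2a1, Hk2, Slc16a1, Hif1a, Egln3, Ndrg1, Ero1l and Ankrd37. Lower in PP and higher in PPK were 10 (5.36% of genes), namely Bnip3, Ddit4, Ldha, Ldhb, Pdk1, Pgam1, Slc16a3, Tpi1, Vegfa and Vldlr. The PP call of Ldha was lost with median-of-ratios scaling (-0.07, adjusted p = 0.0777) and without the trend (adjusted p = 0.0534). The count of 12 lower members in PP was 10 without PP sham A, 8 without PP sham B and 9 without either PP ADT library.

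Glucose enters many cells through GLUT1, encoded by Slc2a1 (ENSMUSG00000028645, chr4:119108711-119137983 on GRCm38). Slc2a1 was at 90.8 and 92.5 FPKM in PP sham, 107 and 107 in PPK sham, 222 and 229 in PP ADT, and 234 and 226 in PPK ADT. It was thus set apart by ADT with age and hardly by genotype, and the ADT libraries of both genotypes overlapped. It was higher with ADT by 1.29 ± 0.029 in PP and 1.09 ± 0.029 in PPK (adjusted p = 5.88e-07 and 3.44e-07). The genotype difference was 0.22 ± 0.029 in sham mice (adjusted p = 0.00208). In ADT mice it was 0.02, with a 95% interval from -0.05 to 0.09, and did not pass, but after quantile normalization it was -0.36 (adjusted p = 0.000542). Hexokinases trap glucose by phosphorylation. Hk2, the isoform induced in many tumours, was at 64.2 and 64.4 FPKM in PP sham, 67.4 and 66.3 in PPK sham, 74.7 and 75.3 in PP ADT, and 145 and 142 in PPK ADT. PPK ADT stood far above the other 6 libraries, by 0.93 ± 0.026 against PP ADT (adjusted p = 5.33e-07), and the sham difference of 0.05 did not pass. Hk1, the isoform of most tissues, ran from 16.8 to 23.6 FPKM in the sham and PP ADT libraries and stood at 31.4 and 31.8 in PPK ADT, a difference of 0.62 ± 0.12 from PP ADT (adjusted p = 0.00386). Its sham difference of 0.34 did not pass with all libraries and passed without either PP ADT library (adjusted p = 0.0334 and 0.0335). Its difference from PPK sham, 0.42 ± 0.12 (adjusted p = 0.019), did not pass without any one of the 4 PPK libraries (0.0628 to 0.0779).

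In upper glycolysis, PPK ADT was highest for the isomerases Gpi1 and Tpi1 and for the phosphofructokinases Pfkl and Pfkm. Pfkp, Aldoa and Aldoc were not highest there. Gpi1 was at 52.3 and 48.6 FPKM in PP sham, 62.7 and 59.7 in PPK sham, 45.1 and 48.2 in PP ADT, and 91.0 and 90.1 in PPK ADT, a genotype difference of 0.28 ± 0.051 in sham and 0.94 ± 0.051 in ADT mice (adjusted p = 0.00824 and 9.46e-06). Pfkl, the liver-type phosphofructokinase, was between 22.1 and 25.7 FPKM in 6 libraries and at 33.7 and 32.4 in PPK ADT. Pfkm, the muscle type, was between 3.79 and 4.65 in the same 6 and at 7.71 and 9.49 in PPK ADT. Both passed in ADT mice (0.49 ± 0.054 and 0.88 ± 0.12, adjusted p = 0.000297 and 0.000856) and not in sham mice, where Pfkl passed only without PP sham B (adjusted p = 0.0422). Pfkp, the platelet type, was lowest in PP sham, at 2.62 and 2.52 FPKM. It stood at 6.01 and 7.51 in PPK sham, 4.82 and 4.57 in PP ADT, and 6.38 and 6.27 in PPK ADT, so its genotype difference was wider in sham (1.11 ± 0.099, adjusted p = 0.000394) than in ADT mice (0.36 ± 0.099, adjusted p = 0.0181). The latter did not pass without any one of the 4 ADT libraries (adjusted p = 0.0506 to 0.0823). Aldolases split the phosphorylated hexose. Aldoa, the main form by level, was between 181 and 202 FPKM in 6 libraries and at 231 and 230 in PPK sham. Its difference of 0.09 between PPK and PP in ADT mice (adjusted p = 0.0389) was lost without any library other than those of PP sham (adjusted p = 0.0601 to 0.155) and became -0.38 under quantile normalization. Aldoc, the brain form, was at 5.24 and 5.07 FPKM in PP sham, 7.13 and 9.88 in PPK sham, 11.4 and 11.3 in PP ADT, and 7.57 and 8.57 in PPK ADT. It was higher in PPK than PP in sham mice (0.61 ± 0.14, adjusted p = 0.0167) and lower in ADT mice (-0.45 ± 0.14, adjusted p = 0.0269). The sham call was lost without PP sham A or B (adjusted p = 0.0662 and 0.0776) and the ADT call without any one of the 4 ADT libraries (0.0507 to 0.132), but the difference of both effects, -1.06 ± 0.19, passed (adjusted p = 0.00381). Tpi1, which interconverts the triose phosphates, was at 103 and 100.1 FPKM in PP sham, 117 and 119 in PPK sham, 81.6 and 86.5 in PP ADT, and 130 and 131 in PPK ADT. It was 0.63 ± 0.035 higher in PPK than in PP in ADT mice (adjusted p = 1.12e-05). Against PPK sham its difference of 0.15 (adjusted p = 0.0106) was lost without PPK sham A (0.0536) and turned to -0.07 under quantile normalization (0.163).

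All 5 members of lower glycolysis were higher in PPK than in PP and passed, by 0.20 to 0.34 in sham and 0.68 to 1.33 in ADT mice. Pgk1, the first enzyme of the pathway to yield ATP, was at 152 and 146 FPKM in PP sham, 181 and 185 in PPK sham, 154 and 159 in PP ADT, and 277 and 282 in PPK ADT. Pgam1, the phosphoglycerate mutase, was at 76.1 and 76.9, 85.7 and 90.1, 60.3 and 58.3, and 158 and 144 FPKM in the same order. Pgam1 thus had both its lowest and its highest group among ADT mice, with a genotype difference there of 1.33 ± 0.050 (adjusted p = 1.8e-06). Gapdh, the dehydrogenase often used as a loading control, was at 119 and 118, 144 and 151, 105 and 115, and 199 and 197 FPKM. The enolase Eno1 ran from 63.0 to 77.0 FPKM outside PPK ADT and was at 109 and 106 in it. Pkm, the muscle pyruvate kinase gene, was at 174 and 173, 209 and 231, 173 and 177, and 285 and 275 FPKM. In ADT mice the genotype differences were 0.85 ± 0.046 for Gapdh, 0.71 ± 0.043 for Eno1 and 0.68 ± 0.049 for Pkm (adjusted p = 1.01e-05, 1.62e-05 and 3.85e-05). For Pgk1 it was 0.83 ± 0.031 (adjusted p = 1.89e-06). In sham mice the Pgam1 difference of 0.20 (adjusted p = 0.027) did not pass without any one of the 4 sham libraries (0.0502 to 0.126). In PP, Pgam1 was lower with ADT (-0.36 ± 0.050, adjusted p = 0.00145), and the other 4 did not pass there with all libraries, though Gapdh was lower without PP ADT B (adjusted p = 0.0177) and Pgk1 was higher under median-of-ratios scaling (0.14, adjusted p = 0.0125) and quantile normalization (0.19, adjusted p = 0.00286).

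Enzymes of this stretch have near-identical copies in the mouse genome, mostly processed pseudogenes, and the way reads were shared among them is not given in the sources used here. Annotated genes that match a member's transcript over at least 200 bases at 95% identity or more were counted as copies. Gapdh had 77, which together held 124 to 229 FPKM per library, 54.5% of the sum of Gapdh and its copies. For Pgam1 the single copy, the pseudogene Pgam1-ps2, held 41.2%, for Eno1 3 copies with Eno1b among them held 37.6%, and for Pgk1 4 copies held 27.8%. In Ldha, Ldhb, Pkm, Tpi1, Gpi1 and Bnip3 the share was between 1.29 and 5.97%. With copies added, an alternative chosen after seeing the data, the genotype difference in ADT mice was 0.57 for Gapdh, 0.91 for Pgk1, 1.33 for Pgam1 and 0.68 for Eno1, and all 4 passed. Gapdh in PP then was higher in ADT than in sham mice (0.21, adjusted p = 0.00179) where the gene alone gave -0.11 (adjusted p = 0.0942). In sham mice Eno1 with its copies no longer passed (0.14, adjusted p = 0.363).

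**Figure D3:**
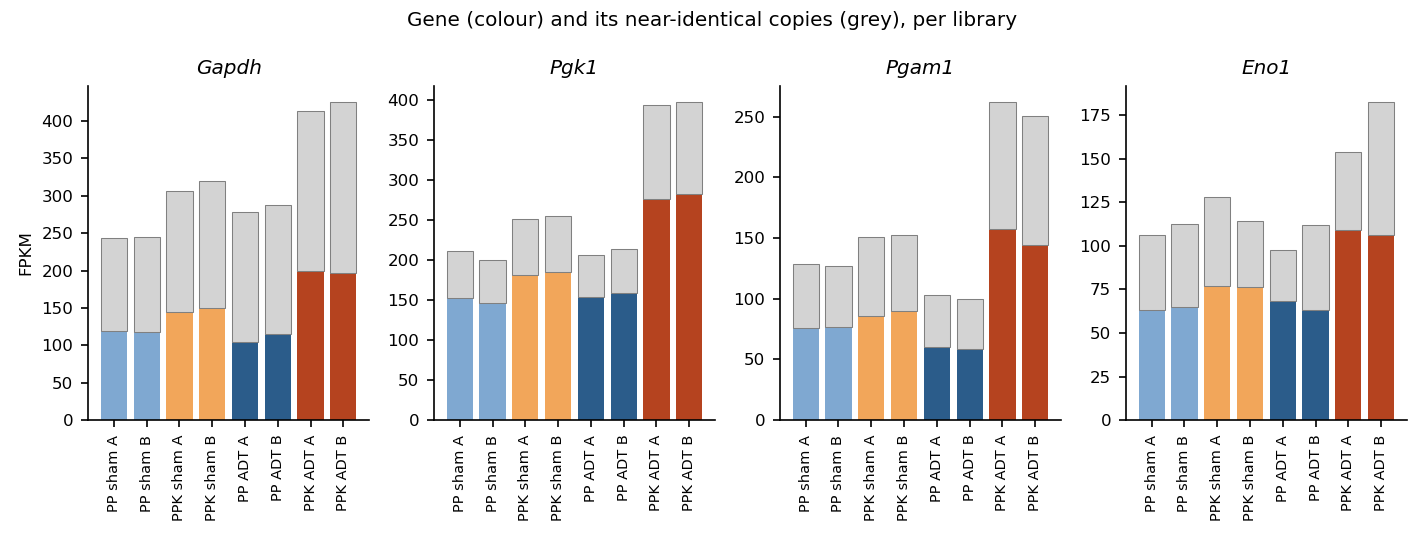
FPKM of Gapdh, Pgk1, Pgam1 and Eno1 (colour) with the summed FPKM of their near-identical copies stacked on top (grey) in each library. The copies hold 54.5% of the Gapdh sum and 27.8% of the Pgk1 sum over all libraries, and PPK ADT is highest in each panel.

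The 5 members listed for the fate of pyruvate and lactate were all at least 2-fold higher in PPK than in PP in ADT mice (9.91% of genes). Genes outside the members were mixed there. Of 12 genes of pyruvate oxidation, 6 were higher, 4 lower and 2 did not pass. Ldha (ENSMUSG00000063229, chr7:46841475-46855627), the dehydrogenase subunit that favours lactate formation, was at 112 and 115 FPKM in PP sham, 135 and 141 in PPK sham, 103 and 102 in PP ADT, and 229 and 227 in PPK ADT. The 4 groups did not overlap, PP ADT was lowest, and the genotype difference was 0.28 ± 0.029 in sham and 1.15 ± 0.029 in ADT mice (adjusted p = 0.000752 and 3.44e-07). Ldhb, the subunit that favours pyruvate formation, was far lower, at 3.30 to 4.43 FPKM in the sham and PP ADT libraries and at 13.2 and 13.2 in PPK ADT. Ldhb was 1.69 ± 0.068 higher in PPK in ADT mice (adjusted p = 2.44e-06) and lower in sham mice, at -0.25 ± 0.068 (adjusted p = 0.0336). The sham call was lost without any one of the sham or PPK ADT libraries (adjusted p = 0.0541 to 0.158). Lactate is carried by MCT1, encoded by Slc16a1 (ENSMUSG00000032902, chr3:104638668-104658462), and by the export-type transporter MCT4, encoded by Slc16a3 (ENSMUSG00000025161, chr11:120948480-120960868). Slc16a1 was under 1 FPKM in all sham libraries, at 0.61 and 0.58 in PP and 0.93 and 0.83 in PPK, and reached 2.40 and 2.67 in PP ADT and 12.9 and 13.1 in PPK ADT. Slc16a3 was at 6.30 and 6.07, 7.48 and 7.39, 4.23 and 4.46, and 21.8 and 20.4 FPKM in the same order. Thus Slc16a1 was higher with ADT in both genotypes (1.14 ± 0.078 in PP and 2.89 ± 0.078 in PPK, adjusted p = 5.58e-05 and 3.56e-07), whereas Slc16a3 was lower in PP (-0.43 ± 0.058, adjusted p = 0.00142) and higher in PPK (1.39 ± 0.058, adjusted p = 2.66e-06). Slc16a1 entered the test only through the ADT groups, so its differences from sham are partly built in. In ADT mice PPK exceeded PP by 1.99 ± 0.078 for Slc16a1 and 2.045 ± 0.058 for Slc16a3 (adjusted p = 2.26e-06 and 5.51e-07). In sham mice Slc16a3 differed by 0.23 (adjusted p = 0.0275), which was lost without any one of the 4 sham libraries (0.0742 to 0.123). Pdk1, the kinase that shuts pyruvate dehydrogenase, was at 6.64 and 6.76 FPKM in PP sham, 6.56 and 6.46 in PPK sham, 5.17 and 4.99 in PP ADT, and 13.2 and 13.2 in PPK ADT. The sham groups gave no passing difference (-0.04, with a 95% interval from -0.16 to 0.09), and in ADT mice the difference was 1.22 ± 0.051 (adjusted p = 2.98e-06).

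Pfkfb3 and Pfkfb4 make and break fructose-2,6-bisphosphate, the activator of phosphofructokinase, and they varied most between libraries of 1 group. Pfkfb3 was at 10.1 and 10.6 FPKM in PP sham, 17.0 and 9.21 in PPK sham, 31.0 and 16.1 in PP ADT, and 21.4 and 21.9 in PPK ADT. Pfkfb4 was at 1.38 and 1.28, 3.22 and 3.01, 4.31 and 2.66, and 3.12 and 2.41 FPKM. PP sham was lowest for Pfkfb4 and the other 3 groups overlapped. Pfkfb4 was 0.82 ± 0.18 higher in PPK in sham mice (adjusted p = 0.0173), which was lost without any one of the 4 sham libraries (0.0637 to 0.0806). In PP it was 0.92 ± 0.18 higher in ADT mice (adjusted p = 0.00719). Its genotype difference in ADT mice did not pass with all libraries and was -0.50 without PP ADT B (adjusted p = 0.0296). Pfkfb3 in PP was 1.045 ± 0.343 higher in ADT mice (adjusted p = 0.0478), lost without PP ADT A, either PP sham library or either PPK ADT library (0.0798 to 0.205). Its difference between ADT and sham in PPK passed only without PPK sham A (adjusted p = 0.0368).

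**Figure D4:**
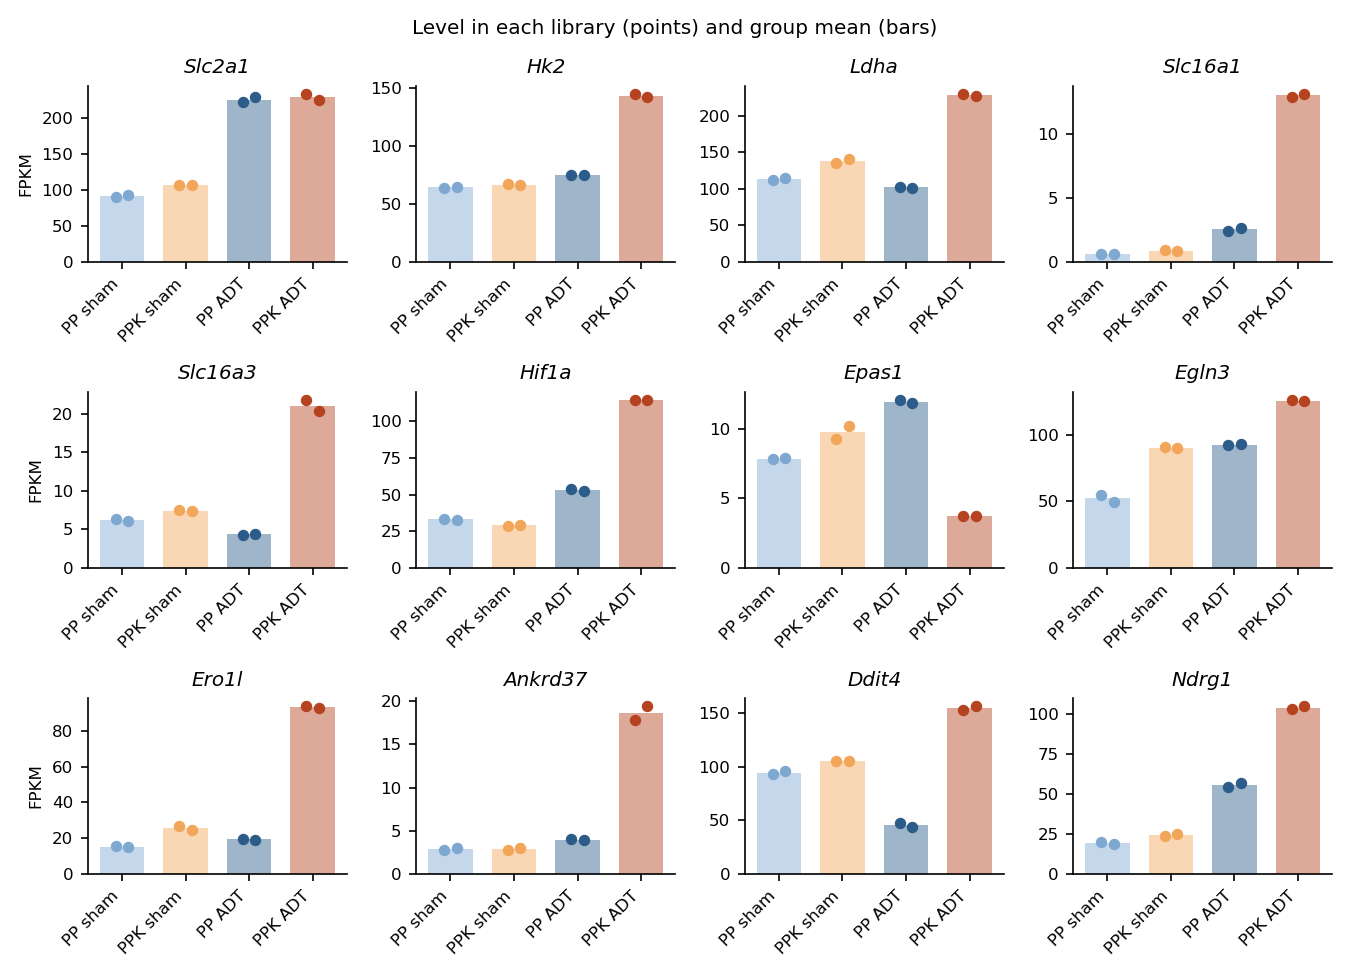
FPKM of 12 members in each library (points) with the group mean of 2 libraries (bars), each axis starting at 0. Slc2a1 separates sham from ADT mice, Epas1 is lowest in PPK ADT at 3.71 and 3.77 FPKM, and the other 10 are highest there.

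The HIF subunit genes stood furthest apart in PPK ADT. Hif1a (ENSMUSG00000021109, chr12:73901375-73947530) was at 33.5 and 32.8 FPKM in PP sham, 28.9 and 29.4 in PPK sham, 53.7 and 52.3 in PP ADT, and 114 and 114 in PPK ADT. Epas1 (ENSMUSG00000024140, chr17:86753700-86833410), which encodes HIF-2α, was at 7.83 and 7.89, 9.31 and 10.2, 12.1 and 11.9, and 3.71 and 3.77 FPKM. In sham mice Hif1a was lower in PPK (-0.18 ± 0.031, adjusted p = 0.00646) and Epas1 higher (0.28 ± 0.060, adjusted p = 0.0149). In ADT mice the directions were exchanged, with 1.10 ± 0.031 for Hif1a and -1.45 ± 0.060 for Epas1 (adjusted p = 5.48e-07 and 2.75e-06). The differences of both effects were 1.28 ± 0.044 and -1.73 ± 0.084 (adjusted p = 2.13e-06 and 9.13e-06). The sham call of Epas1 was lost without PP sham A, PP sham B or PPK sham B (adjusted p = 0.0637 to 0.0711). With ADT, Hif1a was higher in PP by 0.66 ± 0.031 and in PPK by 1.94 ± 0.031 (adjusted p = 1.08e-05 and 4.43e-08, limma). Epas1 was also higher with ADT in PP but lower in PPK, and it passed in both. The prolyl hydroxylase gene Egln3, itself a HIF target, differed more by genotype in sham than in ADT mice. It was at 54.8 and 49.5 FPKM in PP sham, 90.5 and 89.9 in PPK sham, 92.0 and 93.3 in PP ADT, and 126 and 125 in PPK ADT. Its genotype difference was 0.78 ± 0.048 in sham and 0.43 ± 0.048 in ADT mice (adjusted p = 7.76e-05 and 0.000284), and the difference of -0.35 ± 0.067 passed (adjusted p = 0.00519). Egln1, which encodes the main oxygen-dependent hydroxylase PHD2, was between 14.5 and 17.6 FPKM outside PPK ADT and at 24.8 and 24.0 in it (0.57 ± 0.047 against PP ADT, adjusted p = 7.4e-05). Its sham difference of 0.22 (adjusted p = 0.0158) was lost without PP sham B or either PPK sham library (0.0621 to 0.0832).

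Among the 10 targets outside glycolysis, PPK was higher than PP in ADT mice for 9, Vldlr among them, and P4ha2 did not pass. Ero1l (ENSMUSG00000021831, chr14:45283087-45318771), an oxidase of protein folding in the endoplasmic reticulum, was at 15.4 and 15.0 FPKM in PP sham, 26.5 and 24.5 in PPK sham, 19.5 and 19.0 in PP ADT, and 93.7 and 92.6 in PPK ADT. It differed by genotype by 2.22 ± 0.047 in ADT mice (adjusted p = 1.71e-07) and by 0.71 ± 0.047 in sham mice (adjusted p = 0.000113). Ankrd37, an ankyrin repeat gene known as a HIF-1 target, was between 2.74 and 4.0 FPKM in 6 libraries and at 17.8 and 19.4 in PPK ADT. The sham groups overlapped for Ankrd37, and in ADT mice PPK exceeded PP by 1.99 ± 0.073 (adjusted p = 1.72e-06). Ddit4, which encodes REDD1, a stress-induced brake on mTORC1, was at 93.4 and 95.9 FPKM in PP sham, 106 and 106 in PPK sham, 47.6 and 43.7 in PP ADT, and 153 and 157 in PPK ADT. Of all members it had the largest drop with ADT in PP (-1.04 ± 0.044, adjusted p = 6.48e-06), and it was 0.55 ± 0.044 higher with ADT in PPK (adjusted p = 5.65e-05). Ndrg1, a stress and differentiation gene, was at 19.6 and 19.0, 23.9 and 25.2, 54.6 and 56.8, and 103 and 105 FPKM, higher with ADT in both genotypes by 1.48 ± 0.041 and 2.04 ± 0.041 (adjusted p = 1.32e-06 and 1.04e-07). Vegfa, the vessel growth factor, was between 20.1 and 28.2 FPKM in 6 libraries and at 43.1 and 41.1 in PPK ADT, where the 10 endothelial markers summed to 2.31 and 2.49 FPKM. Adm, the vasodilator peptide adrenomedullin, was between 6.05 and 7.40 FPKM in the same 6 and at 21.6 and 21.2 in PPK ADT. Bnip3, a gene of mitochondrial clearance, was at 30.7 and 31.0, 34.7 and 33.5, 26.1 and 25.1, and 43.9 and 42.2 FPKM. In ADT mice these differed by genotype by 0.94 ± 0.081, 1.54 ± 0.10 and 0.73 ± 0.040 (adjusted p = 9.19e-05, 2.7e-05 and 1.06e-05). P4ha1, a collagen prolyl hydroxylase, kept a different order, with 14.2 and 14.4 FPKM in PP sham, 19.2 and 18.7 in PPK sham, 10.1 and 10.8 in PP ADT, and 16.9 and 17.4 in PPK ADT. PPK exceeded PP by 0.38 ± 0.047 in sham and 0.67 ± 0.047 in ADT mice (adjusted p = 0.00161 and 3.57e-05), and it was lower with ADT in PP (-0.42 ± 0.047, adjusted p = 0.000585). Its paralog P4ha2 stayed between 9.51 and 11.5 FPKM and passed in no comparison. Vldlr, a lipoprotein receptor, was at 0.81 and 0.71, 0.43 and 0.26, 0.35 and 0.46, and 1.31 and 1.35 FPKM. Only PPK ADT brought Vldlr into the test, and its values in the other groups lay under 1 FPKM. Its lower calls in PPK sham (-0.39) and in PP ADT (-0.32) did not pass with all genes tested (adjusted p = 0.0724 and 0.0927, limma). Several small calls rested on single libraries. In sham mice Bnip3 (0.14, adjusted p = 0.0435) was lost without any one of the 8 libraries (0.0504 to 0.168) and Ddit4 (0.16, adjusted p = 0.0388) without any sham or PPK ADT library (0.0605 to 0.16). For ADT with age in PP, Vegfa (-0.33, adjusted p = 0.0176) was lost without either PP sham library or PP ADT B (0.0696 to 0.0866). Aldoa (-0.11, adjusted p = 0.0271) and Ldhb (-0.25, adjusted p = 0.024) were lost there without PP sham B or either PP ADT library (0.0513 to 0.124). In PPK, P4ha1 (-0.14, adjusted p = 0.0424) was lost without any library but those of PP ADT (0.0656 to 0.154). For the difference of effects, Aldoa (-0.14, adjusted p = 0.0381) was lost without any library but PP sham B (0.0511 to 0.103), and Hk1 passed without PP ADT A (0.45, adjusted p = 0.0359).

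Isoform pairs were compared as shares of their summed FPKM in each library, a description with no test, since an exact permutation test of 2 against 2 libraries cannot reach the threshold. Epas1 made up 18.9 and 19.4% of Hif1a plus Epas1 in PP sham, 24.3 and 25.8% in PPK sham, 18.4 and 18.5% in PP ADT, and 3.14 and 3.19% in PPK ADT. Slc16a1 made up 8.83 and 8.79% of Slc16a1 plus Slc16a3 in PP sham and 11.1 and 10.1% in PPK sham, against 36.2 and 37.4% in PP ADT and 37.2 and 39.1% in PPK ADT. The share of Slc16a1 thus lay far apart between sham and ADT libraries, the genotypes overlapped in ADT mice and did not in sham mice, and the level of both transporters in PPK ADT was well above that in PP ADT. Ldhb held 3.48 and 3.72% of Ldha plus Ldhb, then 2.39 and 2.42%, 3.30 and 3.14%, and 5.44 and 5.52%, a minor part in every library. Pfkp held 9.21 and 8.12% of the 3 phosphofructokinases in PP sham and 13.0 to 20.2% elsewhere. Hk2 held 74.0 to 82.2% of Hk1 plus Hk2 in all 8 libraries.

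**Figure D5:**
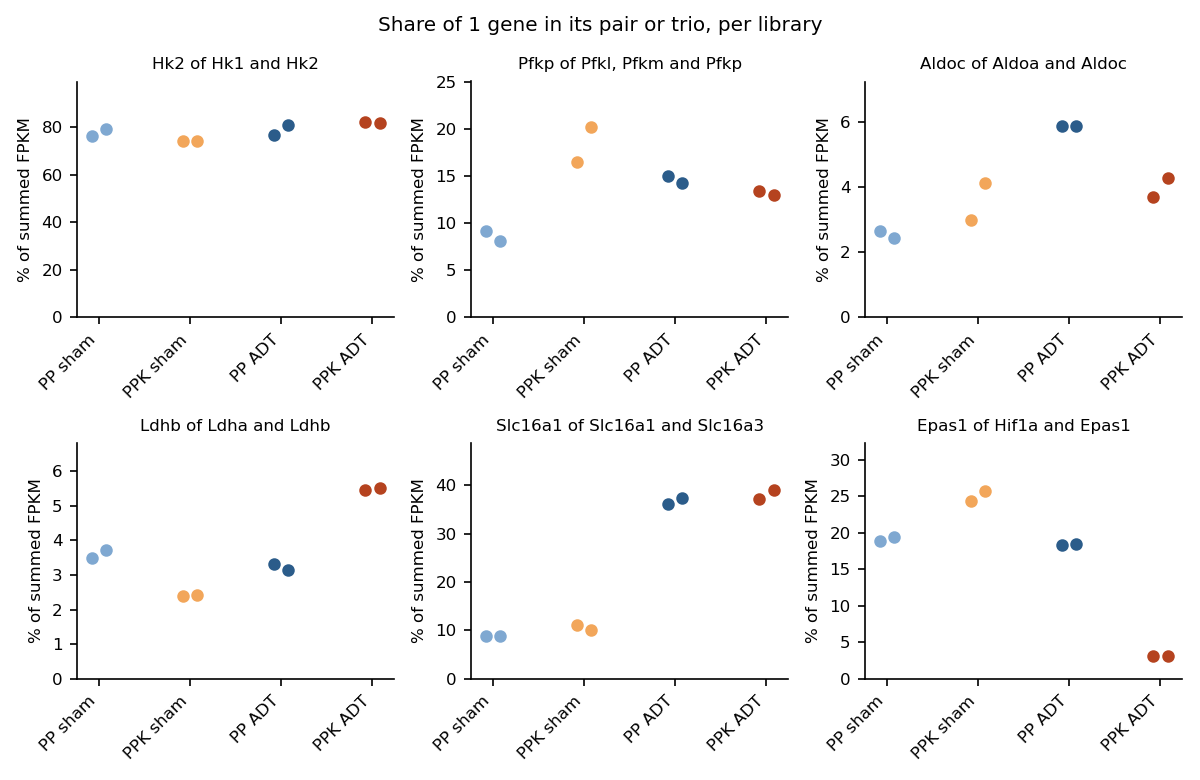
Share of 1 gene in the summed FPKM of its pair or trio, in percent, for each library (points) by group, with axes from 0. Epas1 drops to 3.14 and 3.19% in PPK ADT, and Slc16a1 lies at 36.2% or more in all ADT libraries and at or under 11.1% in all sham libraries.

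A further 106 genes of the same pathways were listed, of which 80 were tested. Slc2a4, Slc2a9 and Pdk4 reached the filter of 1 FPKM only in PPK ADT, and Angptl4 only in the ADT groups. Fbp1 and Ppp1r3c reached it only in PP sham. The counts below hold these genes, and their differences from groups under the filter are partly built in. In ADT mice 39 of them were higher in PPK (32.5% of all genes were), 19 lower (27.1%) and 22 did not pass, with a median of 0.24 against 0.05 for all genes. In sham mice 13 were higher (13.7%), 23 lower (14.9%) and 44 did not pass (median -0.06). With ADT in PP 14 were higher (19.1%), 30 lower (25.1%) and 36 did not pass, and in PPK 40 were higher (31.9%), 23 lower (30.7%) and 17 did not pass. Of 12 genes of pyruvate oxidation, 6 were higher in PPK in ADT mice (32.5% of all genes), 4 were lower (27.1%) and 2 did not pass. Pdk4 was the 1 gene at least 2-fold higher, and 1 was at least 2-fold lower. Pdk4, another pyruvate dehydrogenase kinase, was at 0.42 to 0.63 FPKM in 6 libraries and at 11.1 and 9.75 in PPK ADT, the group that alone brought it into the test. Pdk2 went the other way, from 10.3 and 10.6 in PP ADT to 3.27 and 3.36 (-1.41 ± 0.085, adjusted p = 1.6e-05). Pcx, the pyruvate carboxylase, measured 2.01 and 2.13 FPKM in PP ADT against 18.6 and 17.8 in PPK ADT (2.65 ± 0.064, adjusted p = 2.9e-07). Pygb, the brain form of glycogen phosphorylase, fell from 139 and 144 FPKM in PP ADT to 17.4 and 18.1 in PPK ADT (-2.93 ± 0.039, adjusted p = 4e-08). Fbp1, which runs glycolysis backward, measured 6.43 and 6.38 FPKM in PP sham, and no other library exceeded 0.77. In the pentose phosphate branch G6pdx and Tkt were higher in PPK in ADT mice (0.62 ± 0.066 and 0.73 ± 0.042, adjusted p = 0.00026 and 1.2e-05), and Taldo1 was lower (-0.69 ± 0.041, adjusted p = 1.4e-05). Of the other HIF targets 33 were tested, and in ADT mice 21 were higher in PPK (32.5% of all genes), 6 lower (27.1%) and 6 did not pass. In sham mice 11 were higher (13.7%), 10 lower (14.9%) and 12 did not pass. Fam162a, a mitochondrial protein gene, measured 46.9 and 44.1 FPKM in PP ADT against 186 and 238 in PPK ADT (2.18 ± 0.11, adjusted p = 6.9e-06). Bhlhe40, a repressor induced by low oxygen, was higher in PPK in both conditions (0.67 ± 0.028 in sham and 0.76 ± 0.028 in ADT mice, adjusted p = 1.9e-05 and 1.8e-06). Car9, the carbonic anhydrase used as a hypoxia marker, measured 4.06 and 3.35 FPKM in PP sham, 19.3 and 16.2 in PPK sham, 35.6 and 36.8 in PP ADT, and 49.6 and 54.7 in PPK ADT, so its genotype difference was wider in sham (1.99 ± 0.11, adjusted p = 4.6e-05) than in ADT mice (0.51 ± 0.11, adjusted p = 0.0057). The difference of both, -1.48 ± 0.15, passed (adjusted p = 0.00027). Slc16a7, a further monocarboxylate transporter that reached 1 FPKM in all groups but PPK ADT, measured 0.49 and 0.66 FPKM there against 6.38 and 5.75 in PP ADT. Bsg, the partner protein of MCT1 and MCT4, was lower in PPK ADT than in PP ADT, at 168 and 185 against 210 and 206 FPKM (-0.24 ± 0.050, adjusted p = 0.0058).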

How the data were processed

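RNA from sorted prostate epithelium was sequenced as strand-specific total RNA, per the labels' protocols. The authors deposited 1 table a library with FPKM per Ensembl gene. Build mm10 and FastQC 0.11.2 are named in the submitters' processing notes, while aligner, quantifier and gene models were not given in the sources used here. Without counts, no count test or counting interval could be made, and FPKM leaves the reads behind a value unknown.

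Symbols came from GENCODE M21 for 55154 identifiers, and 181 had none. The test took the 14000 genes that reached FPKM 1 in 2 or more libraries. Values were analysed as log2(FPKM + 1), so fold changes of low genes are understated. One limma 3.58.1 model in R 4.3.3, with a mean for each of the 4 groups and a mean-variance trend, gave 5 two-sided contrasts with Benjamini-Hochberg adjustment. The code was run on simulated data with normal noise and few changed genes. That setting differs from these data, so it does not give their error rate. Tables were handled in Python 3.11.15 with pandas 2.3.3 and drawn with matplotlib 3.10.9. The members and lists were chosen with earlier results of these data known. Genes named are all members, the targeted gene, up to 4 of each other pathway role with the smallest adjusted p in a comparison, and the 2 most abundant of each cell type list; Trp63 and the genes under 1 FPKM were added after their values were seen. Alternatives were quantile normalization, a pseudocount of 0.1, dropping the trend, scaling by the median of ratios, testing all genes or those averaging FPKM 5 or more, blocking on the replicate letter, fitting each pair of groups alone, leaving out each library and, chosen after seeing the data, near-identical copies added. Organoid experiments were not analysed here. An allele that all groups carry is not reported here.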

Additional observations from a re-analysis of the deposited data

Results flagged for a closer look

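For 33 of 36 members the difference between PPK and PP was not the same in ADT as in sham mice, by limma's test of the difference itself with adjustment over 14000 genes, and 52.8% of all genes passed this test. Values are the genotype effect in ADT mice minus that in sham mice, in log2 of FPKM + 1, and each effect comes from 2 libraries a group. In glucose entry and upper glycolysis the difference was -0.20 for Slc2a1, 0.87 for Hk2, 0.67 for Gpi1, 0.36 for Pfkl, 0.75 for Pfkm, -0.75 for Pfkp, -0.14 for Aldoa, -1.06 for Aldoc and 0.41 for Tpi1. In lower glycolysis it was 0.53 for Gapdh, 0.54 for Pgk1, 1.14 for Pgam1, 0.44 for Eno1 and 0.34 for Pkm. For the fate of lactate and pyruvate it was 0.87 for Ldha, 1.95 for Ldhb, 1.75 for Slc16a1, 1.81 for Slc16a3 and 1.26 for Pdk1, and for Pfkfb4 it was -1.06. Among the HIF subunits and prolyl hydroxylases it was 1.28 for Hif1a, -1.73 for Epas1, 0.35 for Egln1 and -0.35 for Egln3. Among the targets outside glycolysis it was 0.99 for Vegfa, 1.64 for Adm, 0.59 for Bnip3, 0.56 for Ndrg1, 1.51 for Ero1l, 1.99 for Ankrd37, 1.58 for Ddit4, 0.28 for P4ha1 and 1.12 for Vldlr. Vldlr entered the test through PPK ADT alone. Of the 4 groups, PPK ADT had the lowest luminal and the highest basal and squamous marker sums, and their part in these differences was not tested. Groups of 2 libraries are too small to search for a library that stands apart.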

How the results depend on the processing

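Of 1440 member results with 1 library left out, 1337 kept their direction and their side of the threshold, 95 no longer passed, 8 newly passed and 0 changed direction; of 1569 under the other alternatives, 1501 kept both, 55 no longer passed, 7 newly passed and 6 changed direction. With 1 library left out, a group of 1 was assumed to vary like the others. In the order sham genotype, ADT genotype, ADT in PP, ADT in PPK and difference of effects, members higher then ranged 15 to 22, 28 to 30, 12 to 13, 27 to 28 and 26 to 27, and members lower 1 to 3, 1 to 2, 8 to 12, 2 to 3 and 6 to 7. Glycolytic medians ranged 0.2297 to 0.2584, 0.7323 to 0.7749, -0.01732 to 0.02917 (below 0 without PP ADT A), 0.5003 to 0.5924 and 0.4764 to 0.5086. Medians of the other members ranged 0.1345 to 0.1627, 0.8086 to 0.8215, 0.008097 to 0.1118, 0.555 to 0.6515 and 0.7435 to 0.8484. Genes passing ranged 2758 to 3819, 7266 to 8279, 4778 to 6079, 7648 to 8624 and 6529 to 6755.

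Under quantile normalization the glycolytic medians were 0.2211, 0.4995, 0.09942, 0.4204 and 0.2629 in that order, and the other medians 0.6841, 0.08927, 0.5056 and 0.7023 from the second on; 4 members were lower by genotype in ADT mice. It turned Slc2a1 (-0.3635) and Aldoa (-0.3752) in the ADT genotype comparison, Aldoa in PP (0.01789), Tpi1 in PPK (-0.07099) and Pkm in the difference (-0.0101). Median-of-ratios scaling gave glycolytic medians of 0.2608, 0.7274, 0.1007, 0.5959 and 0.4266, and other medians of 0.111 in PP and 0.7272 for the difference. A pseudocount of 0.1 gave a glycolytic median of 0.2683 in sham mice and a median of 0.9359 for the other members in ADT mice. A mean FPKM of at least 5 tests only 7092 genes, of which 4918, 3933, 5056 and 4476 passed from the second comparison on. It left 33 members, without Slc16a1, Pfkfb4 and Vldlr, so its medians cover fewer members. The glycolytic median was 0.007489 in PP, and the other medians were 0.8908, 0.09881, 0.5465 and 0.5875 from the second comparison on. Only 1 member was lower in sham with only the groups compared, and 1 in ADT mice with no filter. With copies added, glycolytic medians were 0.6785, 0.598 and 0.4687 for ADT genotype, PPK and difference, and Gapdh in PP was 0.2136. With FPKM + 1, the share differences between PPK ADT and PP ADT were 1.754 points for Ldhb (2.258 before) and -0.9723 for Slc16a1 (1.347 before). The causes were not tested.

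With the letters as a replicate block, 3755, 8182, 6013, 8626 and 7186 genes passed against 4000, 8340, 6185, 8765 and 7395. Among members Hk1 then passed in sham, and Ldhb and Ddit4 in sham, Vldlr in PP, P4ha1 in PPK, and Aldoa in ADT mice and in the difference were lost. Deviations of same-lettered libraries correlated only weakly, at -0.0079 to 0.057. Such correlations cannot tell whether these libraries shared a processing batch that touched only some genes, and this was not tested. Groups of 2 libraries and FPKM without reads limit what small differences and genes near 1 FPKM can show.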
